A study of Hipposideros armiger and Mus musculus with 20 samples.

Results

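Brown and browned fat of the cold mouse are compared here: 2 libraries of interscapular brown adipose tissue (iBAT) and 2 of subcutaneous white adipose tissue (sWAT), all from ICR mice kept at 10 °C for 1 week, which are 4 of the 20 libraries of the series. They were chosen by their labelled tissue and temperature. Each group held 1 female and 1 male library, and values below are given in that order. The series also holds the same depots of ICR mice kept at 30 °C for 1 week, again with 1 female and 1 male library each, which serve here to say which differences are also present in the warm, and 12 libraries of a bat, which are not used here. All libraries were made from total RNA and sequenced, and expression is in FPKM, in which fragments are divided by transcript length and by the mapped fragments of the library. The question is which genes still separate the depots once sWAT has been exposed to cold. The labels do not say that libraries came from separate animals, so the p-values measure only the spread between these samples.

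Brown adipocytes are packed with mitochondria and burn fatty acids and glucose to make heat. UCP1, in the inner mitochondrial membrane, lets protons flow back without making ATP, and noradrenaline acting on beta-adrenergic receptors switches the process on through cAMP. White adipocytes store fat, but in the cold the subcutaneous depot of mice gains UCP1-positive cells, called beige cells, which arise in a tissue of different embryonic origin that also holds many fibroblasts, macrophages and, around its lymph node, lymphocytes.

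The labels were first set against marker genes. Ucp1 had 3688 and 5119 FPKM in cold iBAT, against 1229 and 2977 FPKM in cold sWAT, so both depots carried it at a high level in the cold. Hoxc9 and Hoxc10, posterior HOX genes of the trunk, were listed at 0 in both cold iBAT libraries and were present in both cold sWAT libraries, as given below. Of 14871 genes in the table, 10689 reached 1 FPKM in at least 2 of the 8 mouse libraries and were tested. The cold libraries summed to between 286038 and 305098 FPKM. A single mitochondrial transcript, mt-Co2, took 21.3% of that sum in each cold iBAT library, against 10.0% and 13.0% in cold sWAT, and the 10 highest genes took 35.4% and 36.1% in iBAT, against 19.2% and 21.8% in sWAT. FPKM is a share of the library. Over all genes the log2 difference between cold iBAT and cold sWAT had a median of −0.47. The median was −0.57 between the warm depots, and 0.05 for the difference between the 2 comparisons. Scaled without the 10 highest genes the cold median was −0.33, and the cause of the shift was not tested. Log2 differences are therefore given below relative to the median of all genes in the deposited values, as iBAT minus sWAT ± standard error. On this scale the typical gene is at 0 and a value of 1 is a 2-fold difference. Their p-values test the values as deposited. Calls are also given after median-ratio scaling, which brings the median of all genes to 0.02, and "on both scales" means called the same way in both. The number of reads behind the FPKM values is unknown. Steps between low values put the depths of the 8 libraries between 0.949 and 1.11 of the first.

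Between the depots in the cold, limma called 3194 genes at an adjusted p under 0.05 (29.9% of those tested), 248 higher in iBAT (2.32%) and 2946 lower (27.6%). Median-ratio scaling called 1344 higher (12.6%) and 1001 lower (9.36%), and all of the 248 and 1001 were called on both scales. Quantile normalization called 766 higher (7.17%) and 609 lower (5.7%). At 30 °C the same test called 6270 genes (58.7%), 1144 higher in iBAT (10.7%) and 5126 lower (48%), and 2611 genes (24.4%) were called in the same direction at both temperatures, 211 higher and 2400 lower. Those 2611 were 81.7% of the cold calls and 41.6% of the warm calls. The 2 comparisons share no library. Of the genes higher in warm iBAT 18.4% were also higher in cold iBAT, and of those lower in warm iBAT 46.8% were also lower in the cold. With median-ratio scaling these shares were 42.5% and 31.9%, so which direction was kept more often depended on the scale. Large differences were fewer in the cold: 27 genes were more than 4-fold above the median and called higher in cold iBAT, against 429 in warm iBAT, while 176 were more than 4-fold below it and called lower in cold iBAT, against 464 in warm iBAT. The number of cold calls rested on single libraries, with 518 without the female iBAT library, 361 without the male iBAT library, 1624 without the female sWAT library and 4861 without the male sWAT library. Leaving out either warm iBAT library, which enter through the shared estimate of the spread, gave 1877. Called on both scales and without each of the 4 cold libraries in turn were 313 genes (2.93%), 15 higher in cold iBAT and 298 lower, and of these 14 and 291 were called in the same direction at 30 °C. A test of the difference between the temperatures called 10 genes (0.0936%), 4 of them with a positive value (0.0374%) and 6 with a negative one (0.0561%). Without any test, both iBAT libraries lay above both sWAT libraries for 9.64% of genes in the cold and below both for 64%, which is the background for the statements on overlap below. All 3194 genes called in the cold were without overlap, so for a called gene the lack of overlap describes the values and adds no support to the call.

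**Figure D1:**
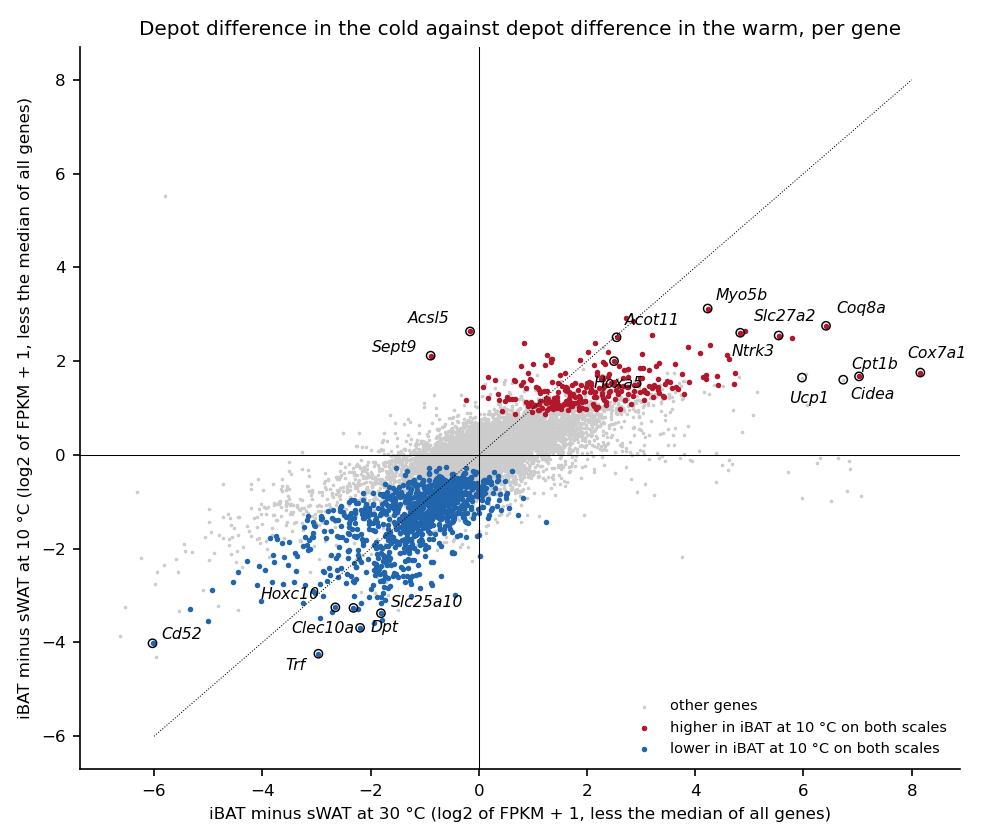
Log2 depot difference (iBAT minus sWAT, relative to the median of all genes) at 10 °C on the y axis against that at 30 °C on the x axis, 1 point a gene, with the 248 genes higher and the 1001 lower in cold iBAT on both scales in red and blue and a dotted line of equality. Most of the genes far to the right, such as Cidea and Cox7a1, lie well below the line, while Acot11 and Hoxa5 lie near it, Acsl5 and Sept9 stand above it on the left, and Dpt, Clec10a, Slc25a10 and Trf are farther from 0 in the cold.

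Gene groups divided into those called mostly higher in cold iBAT (mitochondrial, thermogenic and glycolytic genes), those called mostly lower (fibroblast, matrix, macrophage, complement and HOX genes) and those with at most 1 call (general fat cell, skeletal muscle and clock genes). The lists and members were put together with earlier results of these data known, and the median of a list stands beside a median of 0 for all genes. Counts of calls below stand beside shares of all genes: 2.32% higher in cold iBAT and 27.6% lower, or 12.6% and 9.36% with median-ratio scaling. Bulk tissue cannot tell fewer cells of a type from less RNA per cell, and this holds for every group below.

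**Figure D2:**
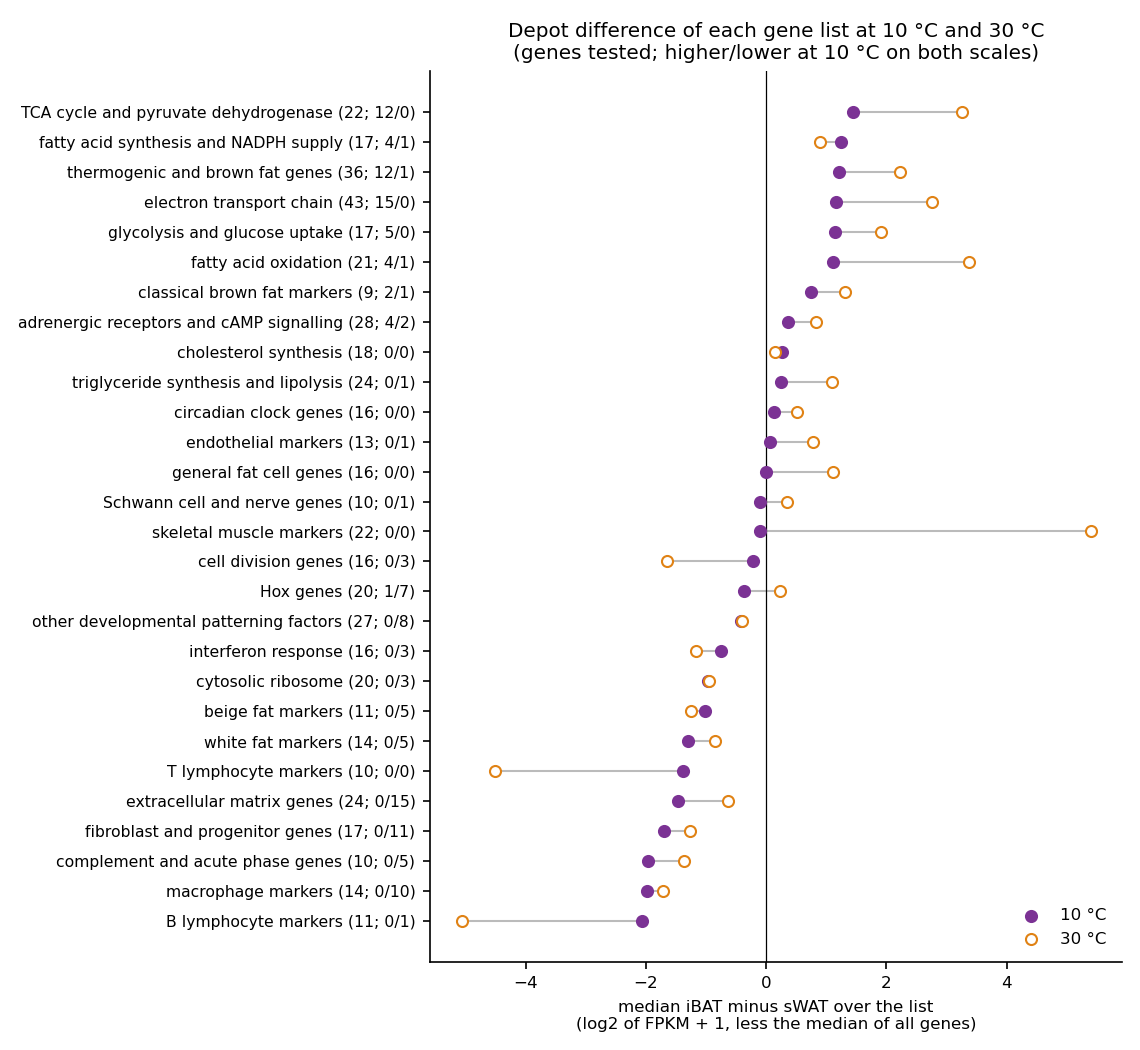
Median log2 depot difference (iBAT minus sWAT, relative to the median of all genes) of each gene list on the x axis, with filled purple points for 10 °C, open orange points for 30 °C, and in each label the genes tested and the number called higher and lower in cold iBAT on both scales. Electron transport, TCA cycle and fatty acid oxidation lists stand at 1.16, 1.45 and 1.11 at 10 °C and at 2.76, 3.26 and 3.38 at 30 °C, while fibroblast, matrix and complement lists lie farther below 0 at 10 °C than at 30 °C.

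Genes with large differences in favour of cold iBAT came first by the naming rule. Myo5b, an unconventional myosin that moves recycling vesicles, had 20.7 and 22.8 FPKM in cold iBAT, against 2.42 and 2.8 FPKM in cold sWAT (3.12 ± 0.16, limma with Benjamini-Hochberg adjustment, adjusted p = 0.000666). Coq8a, an atypical kinase needed for coenzyme Q synthesis, had 255 and 176 FPKM in cold iBAT, against 41.8 and 43.4 FPKM in cold sWAT (2.75 ± 0.31, adjusted p = 0.00597). Acot11, a thioesterase that releases fatty acids from acyl-CoA, had 208 and 250.2 FPKM in cold iBAT, against 49.3 and 60.5 FPKM in cold sWAT (2.51 ± 0.15, adjusted p = 0.00102). In each of these the lower iBAT library was several times above the higher sWAT library, and the libraries of 1 depot lay close together. Acot11 was low in the warm in both depots, at 6.19 and 6.02 FPKM in warm iBAT, against 0.807 and 0.812 FPKM in warm sWAT (2.55 ± 0.15). Both depots thus had more of it in the cold, and a change of the gap was not detectable (difference between temperatures 0.02 ± 0.22, adjusted p = 0.888). The warm sWAT values lay below the 1 FPKM that is added before taking logs, which narrows the warm gap. The small difference between temperatures therefore does not show that the gap in FPKM was unchanged.

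Slc27a2, a fatty acid transporter that also activates very long chain fatty acids, had 44.5 and 26.6 FPKM in cold iBAT, against 7.05 and 7.7 FPKM in cold sWAT (2.55 ± 0.28, adjusted p = 0.00597). Ntrk3, the receptor of neurotrophin 3, had 30.6 and 38 FPKM in cold iBAT, against 7.34 and 6.61 FPKM in cold sWAT (2.61 ± 0.15, adjusted p = 0.000909). Fbp1, a fructose bisphosphatase of gluconeogenesis, had 5.25 and 17 FPKM in cold iBAT, against 0.849 and 1 FPKM in cold sWAT (2.93 ± 0.46, adjusted p = 0.0137), and its iBAT libraries differed from each other more than those of the other genes here. Gpd2, the mitochondrial glycerol phosphate dehydrogenase, had 180.3 and 219 FPKM in cold iBAT, against 63.7 and 77.9 FPKM in cold sWAT (1.95 ± 0.18, adjusted p = 0.00428). P2rx5, an ATP-gated ion channel often used as a surface marker of brown adipocytes, had 36.5 and 54.8 FPKM in cold iBAT, against 14 and 14.9 FPKM in cold sWAT (2.04 ± 0.20, adjusted p = 0.00458). None of these overlapped between the depots. All 8 genes named so far as higher, together with Acsl5, Macrod1 and Hoxa5, kept the call without any single mouse library, which 11 of the named higher genes did. With 4 genes picked after their values were seen, Ahcyl1 (2.15), Grk3 (2.04), Adprhl1 (2.01) and Pdpr (1.97), they made up the 15 higher genes that kept the call on both scales and without each cold library.

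Others among the genes with the largest differences rested on single libraries. Kcp, a secreted modulator of BMP signals (2.86 ± 0.34, adjusted p = 0.00667), was not called without the male iBAT library. Me3, the mitochondrial malic enzyme (2.64 ± 0.34, adjusted p = 0.00878), and Ybx2, a Y-box nucleic acid-binding protein (2.56 ± 0.37, adjusted p = 0.012), were not called without either iBAT library, nor was Kng2, a kininogen (2.50 ± 0.37, adjusted p = 0.0133), whose close copy makes the split of reads uncertain. Sorcs2, a sorting receptor, had 12.4 and 21.2 FPKM in cold iBAT, against 4.42 and 2.86 FPKM in cold sWAT (2.38 ± 0.50, adjusted p = 0.0324), and was not called without any single one of the 4 cold libraries. These 5 genes were higher in warm iBAT too.

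**Figure D3:**
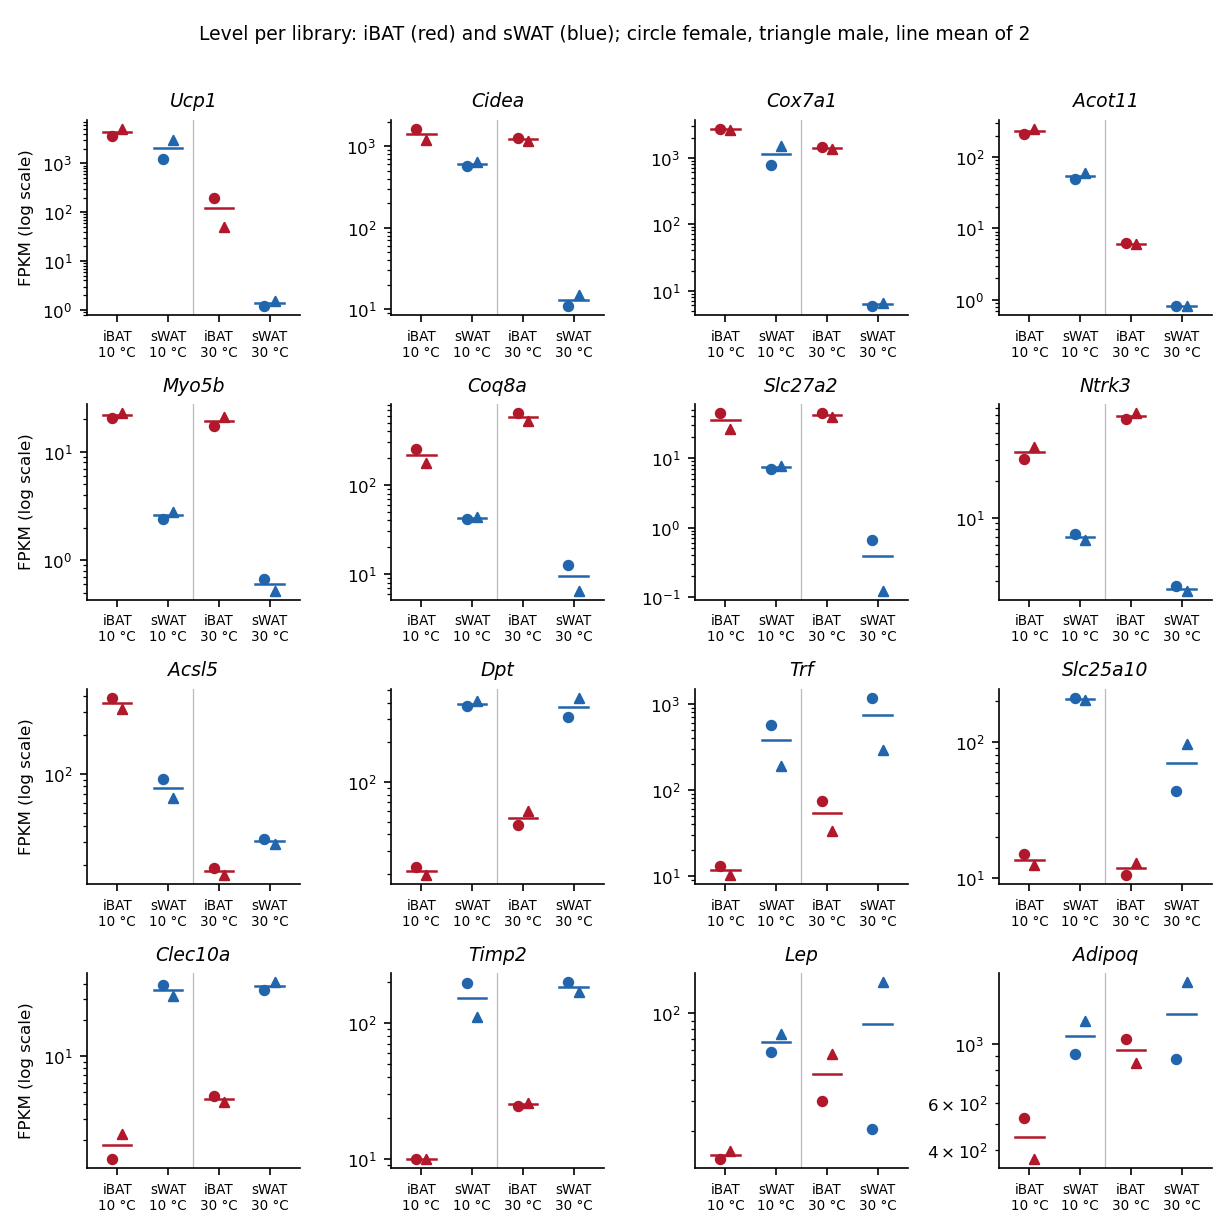
FPKM on a log axis of 16 genes in each of the 8 mouse libraries, iBAT in red left of sWAT in blue at each temperature, with circles for female and triangles for male libraries and a line at each group mean. Cidea and Cox7a1 differ far more between the depots at 30 °C than at 10 °C, Myo5b, Slc27a2 and Ntrk3 keep separate levels in the cold, and Dpt and Slc25a10 stay lower in iBAT at both temperatures.

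Genes of thermogenesis and brown fat were partly still higher in iBAT. Of 36 tested, 12 were higher in cold iBAT and all of these on both scales, against 2.32% of all genes, 2 were lower, and the list median was 1.21 (24 higher, 2 lower and a median of 2.23 at 30 °C). The count of higher genes was 3 without the female and 3 without the male iBAT library, 5 without the female sWAT library and 18 without the male sWAT library. Ucp1 itself was not called in the cold (1.65 ± 0.66, adjusted p = 0.198), although its libraries did not overlap, and at 30 °C it had 192 and 49.9 FPKM in iBAT, against 1.19 and 1.53 FPKM in sWAT (5.97 ± 0.66, adjusted p = 0.00196). The change of its depot gap with temperature did not pass (−4.27 ± 0.94, adjusted p = 0.112). Cidea, a lipid droplet protein, had 1633 and 1176 FPKM in cold iBAT, against 565 and 636 FPKM in cold sWAT (1.67 ± 0.24, adjusted p = 0.0172). Letmd1, a mitochondrial protein of brown fat, had 268 and 286 FPKM in cold iBAT, against 78.7 and 131 FPKM in cold sWAT (1.90 ± 0.25, adjusted p = 0.0109). Both were separate between the depots, and both lost the call without either iBAT library, Cidea also without the female sWAT library.

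Bmp8b, a BMP ligand made by brown fat, had 6.23 and 2.47 FPKM in cold iBAT, against 0.451 and 1.4 FPKM in cold sWAT (1.89 ± 0.40, adjusted p = 0.0393), a call that was lost when any of 7 of the 8 libraries was left out, the exception being the male cold sWAT library. Gatm, the first enzyme of creatine synthesis, was lower, with 1.53 and 1.74 FPKM in cold iBAT, against 6.23 and 5.34 FPKM in cold sWAT (−0.90 ± 0.28, adjusted p = 0.0186), but not without either iBAT library or the female sWAT library. Prdm16, a coregulator of brown fat identity, was not called and had 1.44 and 2.98 FPKM in cold iBAT, against 0.998 and 2.33 FPKM in cold sWAT (0.74 ± 0.34, adjusted p = 0.533), and the ranges overlapped. Ppargc1a, a coactivator of mitochondrial genes, was not called either and had 2.52 and 4.61 FPKM in cold iBAT, against 1.46 and 3.66 FPKM in cold sWAT (0.86 ± 0.38, adjusted p = 0.432), again with overlap. Dio2, which activates thyroid hormone, had 9.9 and 7.05 FPKM in cold iBAT, against 4.35 and 6.82 FPKM in cold sWAT (1.00 ± 0.25, adjusted p = 0.136), and passed with median-ratio scaling but not on the deposited scale.

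Classical brown fat markers gave few calls. Of 9 tested, 2 were higher in cold iBAT and 1 lower, and the median was 0.75. The count of higher genes was 0 without either iBAT library, 2 without the female and 3 without the male sWAT library. Mpzl2, an adhesion protein, had 22.9 and 17.3 FPKM in cold iBAT, against 9.74 and 5.02 FPKM in cold sWAT (1.85 ± 0.30, adjusted p = 0.0202). Cpn2, a carboxypeptidase N subunit, had 5.08 and 5.46 FPKM in cold iBAT, against 0.961 and 2.33 FPKM in cold sWAT (1.76 ± 0.28, adjusted p = 0.0199). Neither was called without either iBAT library, while both were higher in warm iBAT too. Zic1 and Lhx8, transcription factors used to mark classical brown fat, were low. Zic1 had 0.555 and 0.924 FPKM in cold iBAT, against 0 and 0.523 FPKM in cold sWAT (0.95 ± 0.25, adjusted p = 0.171), and at 30 °C 1.77 and 2.01 FPKM in iBAT, against 0 and 0 FPKM in sWAT (2.10 ± 0.25, adjusted p = 0.00367). Lhx8 had 1.14 and 0.452 FPKM in cold iBAT, against 0.605 and 1.03 FPKM in cold sWAT (0.43 ± 0.28, adjusted p = 0.934), with overlapping libraries.

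Mitochondrial genes were higher in cold iBAT, more of them with median-ratio scaling and fewer with quantile normalization. Of 43 electron transport chain genes 15 were higher on both scales (34 with median-ratio scaling) and the median was 1.16, against 41 higher and a median of 2.76 at 30 °C. Of 22 TCA cycle and pyruvate dehydrogenase genes 12 were higher on both scales (18 with median-ratio scaling) with a median of 1.45, against 21 and 3.26 at 30 °C. Of 21 fatty acid oxidation genes 4 were higher on both scales (11 with median-ratio scaling) with a median of 1.11, against 19 and 3.38 at 30 °C. With quantile normalization 11, 6 and 0 genes of these lists were higher, against 7.17% of all genes, with medians of 0.58, 0.93 and 0.68. The counts also depended on single libraries. Without either iBAT library none of the 3 lists had a higher call, without the female sWAT library 0, 2 and 0 genes were called higher, and without the male sWAT library 34, 19 and 10 were, in the order of the lists above. Both genes of mitochondrial DNA in the table stood apart without passing: mt-Nd2, a complex I subunit, had 17077 and 17773 FPKM in cold iBAT, against 6168 and 8360.2 FPKM in cold sWAT (1.74 ± 0.59, adjusted p = 0.134).

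Single genes of the chain had depot gaps of similar size. Ndufb8, of complex I, had 1216 and 1221 FPKM in cold iBAT, against 566 and 684 FPKM in cold sWAT (1.43 ± 0.22, adjusted p = 0.0216). Sdha, of complex II, had 845 and 825 FPKM in cold iBAT, against 343 and 478 FPKM in cold sWAT (1.51 ± 0.26, adjusted p = 0.0299). Uqcrc2, of complex III, had 777 and 709.8 FPKM in cold iBAT, against 301 and 470.0 FPKM in cold sWAT (1.45 ± 0.26, adjusted p = 0.0344). The male sWAT library was nearer to iBAT than the female one for each of these. Cox7a1, a cytochrome oxidase subunit of heart, muscle and brown fat, had 2711 and 2578 FPKM in cold iBAT, against 769.7 and 1516 FPKM in cold sWAT (1.76 ± 0.32, adjusted p = 0.029). Pdha1, of pyruvate dehydrogenase, had 999 and 884 FPKM in cold iBAT, against 397 and 433 FPKM in cold sWAT (1.64 ± 0.23, adjusted p = 0.0149). Sucla2, of succinyl-CoA ligase, had 503 and 461 FPKM in cold iBAT, against 145 and 290.1 FPKM in cold sWAT (1.69 ± 0.36, adjusted p = 0.0434). Groups did not overlap for any of the 6. All 6 lost the call without either cold iBAT library, all but Pdha1 without the female cold sWAT library, and Sdha, Uqcrc2, Cox7a1 and Sucla2 also without either warm iBAT library. Cox7a1 was at 0.66 and not called with quantile normalization. Atp5g3, an ATP synthase subunit, was the 1 gene of the chain called lower, with quantile normalization too but not with median-ratio scaling (−0.50 ± 0.18, adjusted p = 0.0135), and was not called without either cold iBAT library.

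Among fatty acid oxidation genes, Acadl, which starts the oxidation of long chains, had 1057 and 957 FPKM in cold iBAT, against 326 and 619.8 FPKM in cold sWAT (1.63 ± 0.32, adjusted p = 0.038). Etfdh, which passes its electrons on to coenzyme Q, had 462 and 431 FPKM in cold iBAT, against 157 and 274 FPKM in cold sWAT (1.57 ± 0.31, adjusted p = 0.039). Cpt1b, the carnitine palmitoyltransferase of muscle and brown fat, had 243 and 270.2 FPKM in cold iBAT, against 77.3 and 173 FPKM in cold sWAT, which passed with median-ratio scaling but not on the deposited scale (1.60 ± 0.36, adjusted p = 0.0534). Its paralogue Cpt1a, of liver and other tissues, was lower, with 3.01 and 3.39 FPKM in cold iBAT, against 11.2 and 17.3 FPKM in cold sWAT (−1.37 ± 0.27, adjusted p = 0.00737). Libraries of the depots were separate for all 4 genes. Acadl, Etfdh and Cpt1a were not called without either cold iBAT library, nor were Acadl and Etfdh without the female cold sWAT library or either warm iBAT library.

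Of 17 fatty acid synthesis genes 4 were higher in cold iBAT on both scales (8 with median-ratio scaling, 2 with quantile normalization) and 1 was lower, with a median of 1.25. The count of higher genes was 1 without either iBAT library, 4 without the female and 3 without the male sWAT library. Acly, which makes cytosolic acetyl-CoA, had 593 and 581 FPKM in cold iBAT, against 304 and 144 FPKM in cold sWAT (1.95 ± 0.34, adjusted p = 0.0229). Acacb, the acetyl-CoA carboxylase at mitochondria, had 158 and 153 FPKM in cold iBAT, against 57.9 and 70.3 FPKM in cold sWAT (1.73 ± 0.22, adjusted p = 0.0112). Acly and Acacb did not overlap between the depots, and neither was called without either iBAT library. Fads1, a fatty acid desaturase, was lower, with 4.5 and 3.9 FPKM in cold iBAT, against 36.5 and 18.7 FPKM in cold sWAT (−1.92 ± 0.46, adjusted p = 0.0147), but not without either iBAT library or the female sWAT library.

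Acsl5, an acyl-CoA synthetase of mitochondria and endoplasmic reticulum, had the largest difference among the called genes of this list. It had 387 and 318 FPKM in cold iBAT, against 91.9 and 64.9 FPKM in cold sWAT (2.63 ± 0.20, adjusted p = 0.00184). At 30 °C it had 19 and 16.6 FPKM in iBAT, against 31.4 and 29 FPKM in sWAT, which was near the median of all genes (−0.16 ± 0.20) and called lower on the deposited scale but not with median-ratio scaling (adjusted p = 0.0202). Both depots had more Acsl5 in the cold, and the gap between them changed with temperature (2.85 ± 0.29, adjusted p = 0.0445), also with median-ratio and with quantile scaling.

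Of 17 glycolysis and glucose uptake genes 5 were higher in cold iBAT on both scales (9 with median-ratio scaling), none was lower, and the median was 1.14. The count was 2 without the female iBAT, 1 without the male iBAT, 4 without the female sWAT and 6 without the male sWAT library. Besides Gpd2 and Gapdh, these held Pfkl, the liver phosphofructokinase, with 285 and 336 FPKM in cold iBAT, against 131 and 164 FPKM in cold sWAT (1.54 ± 0.17, adjusted p = 0.00844). Pfkp, its platelet form, had 77.3 and 84.2 FPKM in cold iBAT, against 34.5 and 47.8 FPKM in cold sWAT (1.44 ± 0.19, adjusted p = 0.015). Eno1, an enolase, had 248 and 248 FPKM in cold iBAT, against 147 and 126 FPKM in cold sWAT (1.32 ± 0.14, adjusted p = 0.00986). None of the 3 overlapped between the depots. Pfkl lost the call without the male iBAT library and the other two without either iBAT library.

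Of 24 triglyceride synthesis and lipolysis genes only Gpat3 was called, and it was lower. This acyltransferase, which starts glycerolipid synthesis in the endoplasmic reticulum, had 0.869 and 1.46 FPKM in cold iBAT, against 18 and 29 FPKM in cold sWAT (−3.01 ± 0.30, adjusted p = 0.00142), on both scales and without any single library. General fat cell genes gave 0 calls of 16, with a median of 0.00. Adipoq, the hormone adiponectin, had 530.0 and 369 FPKM in cold iBAT, against 922 and 1223 FPKM in cold sWAT (−0.80 ± 0.40, adjusted p = 0.0526). Lpl, the lipase that takes up circulating fat, had 471 and 353 FPKM in cold iBAT, against 616 and 1168 FPKM in cold sWAT (−0.59 ± 0.47, adjusted p = 0.124). Lipe, hormone-sensitive lipase, had 490.4 and 479 FPKM in cold iBAT, against 390.0 and 599 FPKM in cold sWAT (0.47 ± 0.41, adjusted p = 0.994). Adipoq and Lpl were separate between the depots and Lipe overlapped. Cholesterol synthesis genes gave 2 lower calls of 18, Ebp (−0.40 ± 0.25, adjusted p = 0.0447) and Msmo1 (−0.10 ± 0.15, adjusted p = 0.0348), neither on both scales, and Msmo1 was above the median with median-ratio scaling (0.040). Both lost the call without either cold iBAT library or the female cold sWAT library, Ebp also without either warm sWAT library and Msmo1 also without either warm iBAT library.

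Adrenergic and cAMP signalling genes were called in both directions, 4 higher and 4 lower of 28, with 4 higher and 2 lower on both scales. Over all genes 2.32% were higher and 27.6% lower, and 9.36% were lower on both scales, so lower calls were not more frequent in this list than over all genes. Without the female iBAT, male iBAT, female sWAT and male sWAT library 0, 0, 2 and 7 were higher and 2, 2, 3 and 6 lower. Adrb1, the beta-1 receptor, had 7.94 and 7.26 FPKM in cold iBAT, against 2.53 and 3.21 FPKM in cold sWAT (1.62 ± 0.18, adjusted p = 0.00818). The cAMP phosphodiesterase Pde4d had 13.4 and 12.6 FPKM in cold iBAT, against 3.06 and 5.46 FPKM in cold sWAT (1.92 ± 0.23, adjusted p = 0.00891). Pde4a had 12.1 and 9.23 FPKM in cold iBAT, against 3.98 and 5.58 FPKM in cold sWAT (1.48 ± 0.23, adjusted p = 0.0215). Adcy5, an adenylyl cyclase, was lower, with 1.18 and 0.524 FPKM in cold iBAT, against 12.4 and 21.4 FPKM in cold sWAT (−2.78 ± 0.39, adjusted p = 0.00395), as was Creb3l1, a transcription factor tethered to the endoplasmic reticulum, with 0.828 and 1.07 FPKM in cold iBAT, against 5.81 and 7.17 FPKM in cold sWAT (−1.47 ± 0.18, adjusted p = 0.00196). None of the 5 overlapped between the depots. Adcy5 and Creb3l1 kept the call without any single library, whereas Adrb1, Pde4d and Pde4a lost it without either iBAT library and Pde4a also without the female sWAT library. Pde4b, another phosphodiesterase, was called lower on the deposited scale but not with median-ratio scaling (−0.51 ± 0.29, adjusted p = 0.0459) and lost the call without any iBAT library of either temperature, the male warm sWAT library or the female cold sWAT library.

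Genes with large differences in the other direction follow. Trf, the iron carrier transferrin, had 13.1 and 10.3 FPKM in cold iBAT, against 572 and 188 FPKM in cold sWAT (−4.24 ± 0.78, adjusted p = 0.00979). Slc25a10, the mitochondrial dicarboxylate carrier, had 14.9 and 12.4 FPKM in cold iBAT, against 212 and 204 FPKM in cold sWAT (−3.38 ± 0.34, adjusted p = 0.00155). Nnmt, which methylates nicotinamide, had 3.8 and 3.51 FPKM in cold iBAT, against 37.7 and 139 FPKM in cold sWAT (−3.52 ± 0.71, adjusted p = 0.0122). The sWAT libraries of Trf and Nnmt differed several-fold from each other, while those of Slc25a10 were alike. Slc25a10 was lower where most of the mitochondrial genes above were higher or not called, and was at 10.5 and 13 FPKM in warm iBAT, against 43.8 and 95.9 FPKM in warm sWAT (−1.81 ± 0.34, adjusted p = 0.00265). Il1r2, the decoy receptor of interleukin 1, had 0.3 and 0.277 FPKM in cold iBAT, against 15.7 and 22.7 FPKM in cold sWAT (−3.49 ± 0.39, adjusted p = 0.00216). Slc25a10 and Il1r2 kept the call without any single library, and Trf and Nnmt lost it without either iBAT library. Cd52, Coro1a, Rac2 and Cd37, genes of white blood cells, were lower too (−4.02 ± 0.98, −3.29 ± 0.95, −2.89 ± 0.85 and −2.71 ± 0.65), and all 4 lost the call without either cold iBAT library, Coro1a and Rac2 also without either warm one. For Cd52 the sWAT values were far apart, at 1.92 and 2.42 FPKM in cold iBAT, against 238 and 19.9 FPKM in cold sWAT (adjusted p = 0.0208).

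Most fibroblast and matrix genes were lower in cold iBAT. Of 17 fibroblast and progenitor genes 14 were lower, 11 of them on both scales, against 27.6% and 9.36% of all genes, and the median was −1.69 (−1.27 at 30 °C). Of 24 extracellular matrix genes 20 were lower, 15 on both scales, with a median of −1.46 (−0.63 at 30 °C). The fibroblast count was 7 without either iBAT library, 12 without the female and 14 without the male sWAT library, and the matrix count was 14 and 10 without the female and male iBAT, and 19 and 20 without the female and male sWAT library. Dpt, dermatopontin of the matrix, had 22.7 and 19.7 FPKM in cold iBAT, against 375 and 411 FPKM in cold sWAT (−3.69 ± 0.22, adjusted p = 0.000654). Timp2, an inhibitor of matrix proteases, had 9.89 and 9.93 FPKM in cold iBAT, against 195 and 111 FPKM in cold sWAT (−3.30 ± 0.26, adjusted p = 0.000835). Mmp2, a gelatinase, had 8.37 and 6.8 FPKM in cold iBAT, against 137 and 80.8 FPKM in cold sWAT (−3.17 ± 0.31, adjusted p = 0.00142). These 3 were more than 4-fold lower in iBAT and did not overlap.

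Col1a2, of collagen type I, had little spread between the libraries of a depot, and Col3a1, of type III, had more. Col1a2 had 18.2 and 16.9 FPKM in cold iBAT, against 166 and 166 FPKM in cold sWAT (−2.71 ± 0.15, adjusted p = 0.000654), and at 30 °C 37.4 and 31.7 FPKM in iBAT, against 147 and 124 FPKM in sWAT (−1.37 ± 0.15, adjusted p = 0.00102). Col3a1 had 47.4 and 42.2 FPKM in cold iBAT, against 339 and 446 FPKM in cold sWAT (−2.63 ± 0.28, adjusted p = 0.00166). For Col1a2 the iBAT level was lower and the sWAT level higher in the cold than in the warm, and the change of the depot gap did not pass (−1.28 ± 0.21, adjusted p = 0.0932). Pi16 and Dpp4, markers of early adipose progenitors, followed the same direction. Pi16 had 4.32 and 3.37 FPKM in cold iBAT, against 59.8 and 33.8 FPKM in cold sWAT (−2.79 ± 0.27, adjusted p = 0.00131). Dpp4 had 0.367 and 0.513 FPKM in cold iBAT, against 14.5 and 7.56 FPKM in cold sWAT (−2.53 ± 0.30, adjusted p = 0.00231). Efemp1, a fibulin (−3.58 ± 0.47), Dcn, decorin (−2.68 ± 0.23), Mfap5, of microfibrils (−2.63 ± 0.26), and Col1a1 (−2.60 ± 0.23) were lower likewise. None of the libraries overlapped for these 8 genes, and each kept the call on both scales and without any single library, as did Dpt, Timp2 and Mmp2. Mmp14 and Thy1 (−2.65 ± 0.45 and −2.77 ± 0.53) were lower but lost the call without either iBAT library.

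Macrophage and complement genes were lower in cold iBAT as well. Of 14 macrophage genes 10 were lower, all on both scales, with a median of −1.97 (−1.72 at 30 °C), and the count was 8, 7, 8 and 14 without the female iBAT, male iBAT, female sWAT and male sWAT library. The summed level of the 14 was 35.7 and 37.7 FPKM in cold iBAT, against 382 and 263 FPKM in cold sWAT. Clec10a, a lectin of alternatively activated macrophages, had 1.36 and 2.23 FPKM in cold iBAT, against 39.8 and 31.9 FPKM in cold sWAT (−3.26 ± 0.20, adjusted p = 0.000654). Csf1r, the receptor of macrophage colony-stimulating factor, had 4.29 and 4 FPKM in cold iBAT, against 36.4 and 28.5 FPKM in cold sWAT (−2.22 ± 0.16, adjusted p = 0.000654). Mrc1, the mannose receptor, had 2.71 and 2.68 FPKM in cold iBAT, against 21.1 and 22.3 FPKM in cold sWAT (−2.15 ± 0.15, adjusted p = 0.000654). C1qb, C1qc and Cd68 were lower too (−2.31 ± 0.24, −2.38 ± 0.25 and −2.28 ± 0.23). Libraries of the depots were separate for all 6, and each kept the call without any single library.

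Of 10 complement and acute phase genes 6 were lower, 5 of them on both scales, with a median of −1.96 (−1.37 at 30 °C), and the count was 4 without either iBAT library, 5 without the female and 6 without the male sWAT library. Cfb, factor B of the alternative pathway, had 1.45 and 1.27 FPKM in cold iBAT, against 28.2 and 37 FPKM in cold sWAT (−3.35 ± 0.24, adjusted p = 0.000666). C2, its counterpart in the classical pathway, had 0.741 and 1.44 FPKM in cold iBAT, against 17.7 and 20.7 FPKM in cold sWAT (−2.82 ± 0.20, adjusted p = 0.000666). Serping1, the C1 inhibitor, had 23.6 and 22.7 FPKM in cold iBAT, against 206 and 191 FPKM in cold sWAT (−2.58 ± 0.19, adjusted p = 0.000666). All 3 were separate by a wide margin and kept the call without any single library, as did C1s1 (−2.09 ± 0.25), while Cp, ceruloplasmin (−1.53 ± 0.32), lost it without either iBAT library. C3 was called on the deposited scale but not with median-ratio scaling, with 168 and 80.8 FPKM in cold iBAT, against 377 and 218 FPKM in cold sWAT (−0.82 ± 0.39, adjusted p = 0.047), and was not called without any 1 of 7 libraries. Interferon response genes gave 9 lower calls of 16, of which 3, Irf7 (−1.48 ± 0.43), Parp14 (−0.87 ± 0.29) and Rtp4 (−1.59 ± 0.47), were lower on both scales, and each of the 3 lost the call without either iBAT library or the female sWAT library. The list had 0 lower calls without each of these 3 libraries or with quantile normalization, and 9 without the male sWAT library.

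Lymphocyte genes were highest in 1 cold library, the female sWAT library. The summed B cell markers had 12.5 and 13.9 FPKM in cold iBAT, against 1443 and 99.6 FPKM in cold sWAT. The summed T cell markers had 2.76 and 1.23 FPKM in cold iBAT, against 181 and 3.12 FPKM in cold sWAT. Both warm sWAT libraries were higher still, with B cell sums of 12743 and 2827 FPKM and T cell sums of 540 and 563 FPKM. In warm iBAT these sums were 202 and 24.2 FPKM, and 2.27 and 2.43 FPKM. All 11 B cell and all 10 T cell genes tested were called lower in warm iBAT. Of 11 B cell genes only Ighm, the constant region of IgM, was called, with 3.48 and 8.51 FPKM in cold iBAT, against 159 and 67.1 FPKM in cold sWAT (−3.53 ± 0.49, adjusted p = 0.00423), although immunoglobulin genes are alike and its share of reads is uncertain. Of 10 T cell genes 0 were called, with Lck, a kinase of the T cell receptor, at 0.641 and 0.224 FPKM in cold iBAT, against 33.9 and 0.89 FPKM in cold sWAT (−2.05 ± 1.17, adjusted p = 0.135). The male sWAT library was close to iBAT for T cell genes and without it 10 B cell and 10 T cell genes were called lower. Epithelial markers were also carried by the female sWAT library, at 0.859 and 0.499 FPKM in cold iBAT, against 52.4 and 0.171 FPKM in cold sWAT, and the 4 genes tested gave 0 calls. Their part in the other differences was not tested.

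In the cold, skeletal muscle genes were higher in the male libraries. The summed level was 56.0 and 1353 FPKM in cold iBAT, against 85.9 and 2435 FPKM in cold sWAT, and Ckm, the creatine kinase of muscle, had 0.29 and 194 FPKM in cold iBAT, against 3.42 and 359.7 FPKM in cold sWAT (−0.87 ± 2.69, adjusted p = 0.708). None of 22 muscle genes was called in the cold, while 9 were higher in warm iBAT, where the sums were 2992 and 2266 FPKM, against 93.7 and 43.4 FPKM in warm sWAT. Endothelial markers summed to 225 and 208 FPKM in cold iBAT, against 283 and 333 FPKM in cold sWAT, and 5 of 13 were lower but only Lyve1 on both scales, against 27.6% and 9.36% of all genes. The count of lower ones was 2, 1, 2 and 5 without the female iBAT, male iBAT, female sWAT and male sWAT library. Lyve1, a marker of lymphatic vessels and of some macrophages, had 0.951 and 1.04 FPKM in cold iBAT, against 11.5 and 12.8 FPKM in cold sWAT (−2.25 ± 0.19, adjusted p = 0.000835), without overlap and without loss of the call under any leave-out. Cldn5, a tight junction protein of vessels, had 17.8 and 15 FPKM in cold iBAT, against 30.6 and 58.8 FPKM in cold sWAT (−0.86 ± 0.29, adjusted p = 0.0215), was called on the deposited scale but not with median-ratio scaling and not without either cold iBAT library, and was higher in warm iBAT. Of 10 Schwann cell and nerve genes 2 were lower and 1, Pmp22, a myelin protein also made by fibroblasts, on both scales (−1.35 ± 0.16, adjusted p = 0.00166), and the count was 1 without either iBAT or the female sWAT library and 5 without the male sWAT library.

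**Figure D4:**
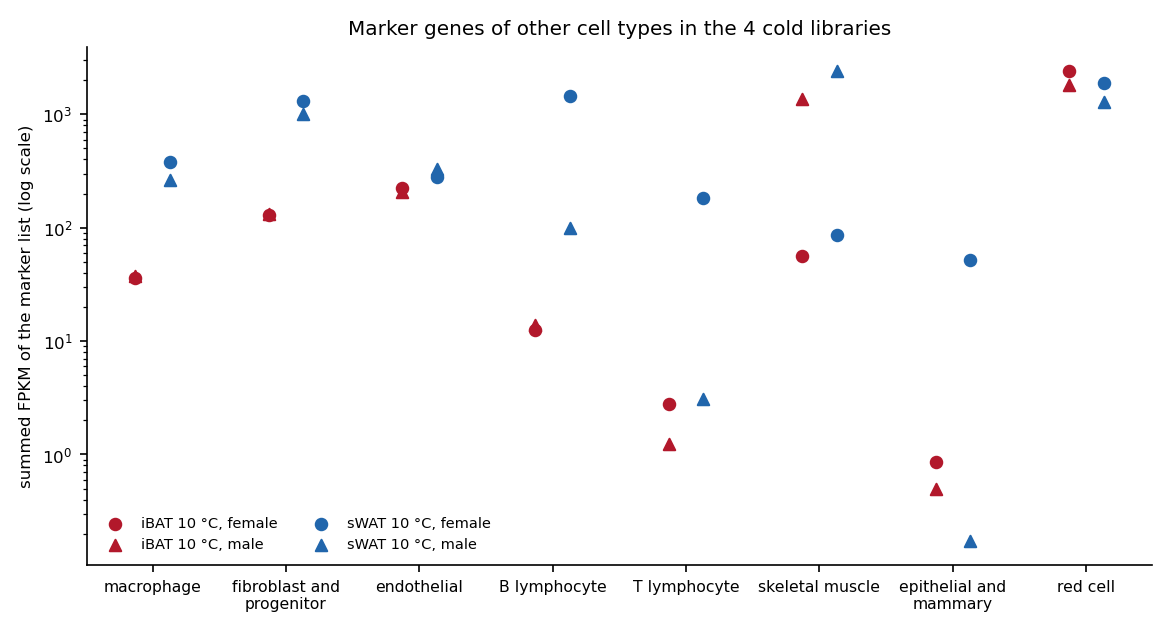
Summed FPKM, on a log axis, of the marker lists of cells other than adipocytes in each cold library, iBAT in red left of sWAT in blue, with circles for female and triangles for male libraries. Macrophage markers are higher in both sWAT libraries (382 and 263 FPKM) than in both iBAT libraries (35.7 and 37.7 FPKM), lymphocyte and epithelial markers are highest in the female sWAT library, and muscle markers are high in both male libraries.

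Many markers of beige and of white fat were lower in cold iBAT. Of 11 beige markers 7 were lower, 5 on both scales, none was higher, and the median was −1.02 (−1.25 at 30 °C). The count was 1 without either iBAT library, 5 without the female and 9 without the male sWAT library. Tbx1, a T-box factor, had 0 and 0.0673 FPKM in cold iBAT, against 2.01 and 1.33 FPKM in cold sWAT (−0.89 ± 0.20, adjusted p = 0.007). Klhl13, an adaptor of ubiquitin ligases, had 0.712 and 0.804 FPKM in cold iBAT, against 4.99 and 6.13 FPKM in cold sWAT (−1.43 ± 0.27, adjusted p = 0.00669). Tmem26, a membrane protein, was below 1 FPKM in all 4 libraries, with 0 and 0.0222 FPKM in cold iBAT, against 0.608 and 0.442 FPKM in cold sWAT (−0.12 ± 0.18, adjusted p = 0.0476), and was called on the deposited scale but not with median-ratio scaling. Depots did not overlap for any of the 3, and all 3 lost the call without either cold iBAT library, Tmem26 also without either warm iBAT or the female cold sWAT library. Ear2, an eosinophil ribonuclease with close copies, and Sp100 were lower too (−2.14 ± 0.56 and −1.02 ± 0.35), Sp100 on the deposited scale but not with median-ratio scaling, and neither kept the call without either iBAT library.

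Of 14 white fat markers 7 were lower in cold iBAT, 5 on both scales, with a median of −1.30 (−0.86 at 30 °C). Of these 7, Dpt is also in the fibroblast list and Trem2 also in the macrophage list. The count was 2 and 1 without the female and male iBAT library and 7 without either sWAT library. Besides Dpt, these included Ccdc80, a secreted protein of adipocytes, with 5.36 and 6.14 FPKM in cold iBAT, against 53.5 and 94 FPKM in cold sWAT (−2.95 ± 0.63, adjusted p = 0.0137), and Slc7a10, an amino acid transporter of white adipocytes, with 3.88 and 1.5 FPKM in cold iBAT, against 20.7 and 34.5 FPKM in cold sWAT (−2.52 ± 0.54, adjusted p = 0.0128). Both were separate between the depots, Ccdc80 lost the call without either iBAT library and Slc7a10 without the male one. Lep, leptin, had 13.6 and 15.3 FPKM in cold iBAT, against 58.8 and 75.2 FPKM in cold sWAT, which did not pass (−1.66 ± 0.83, adjusted p = 0.09), and at 30 °C its libraries overlapped, with 30.2 and 57.4 FPKM in iBAT, against 20.6 and 152 FPKM in sWAT.

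HOX genes mark position along the body axis. Of 39 HOX genes 33 were in the table, and 20 passed the filter on low values. Of these, 1 was higher in cold iBAT and 10 lower, 7 of them on both scales, against 2.32%, 27.6% and 9.36% of all genes. Lower calls prevailed over all genes too, with 2946 of 3194, and with quantile normalization 1 HOX gene was higher and 5 lower. Hoxa5, on chromosome 6, was higher, with 11.8 and 9.6 FPKM in cold iBAT, against 3.38 and 2.7 FPKM in cold sWAT (2.00 ± 0.20, adjusted p = 0.005). Hoxa9, in the same cluster, was lower, with 0.411 and 0.316 FPKM in cold iBAT, against 8.19 and 8.13 FPKM in cold sWAT (−2.28 ± 0.39, adjusted p = 0.00649). Hoxc10, on chromosome 15, was listed at 0 in both cold iBAT libraries, against 10.2 and 14.4 FPKM in cold sWAT (−3.25 ± 0.33, adjusted p = 0.00163). The depots did not overlap for any of these.

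Hoxc8 had 0.307 and 1.14 FPKM in cold iBAT, against 7.93 and 15.5 FPKM in cold sWAT (−2.39 ± 0.47, adjusted p = 0.00955). Hoxa10 was listed at 0 in both cold iBAT libraries, against 3.51 and 3.02 FPKM in cold sWAT (−1.63 ± 0.37, adjusted p = 0.0118). Hoxc9 was listed at 0 in both, against 2.14 and 3.08 FPKM in cold sWAT (−1.37 ± 0.26, adjusted p = 0.00688). The 6 HOX genes were called in the same directions at 30 °C, Hoxa9 on the deposited scale but not with median-ratio scaling, with Hoxc9 again listed at 0 in both iBAT libraries. No change of the gap with temperature passed for the 6. Hoxa9 was at −1.38 ± 0.55 (adjusted p = 0.239, unadjusted p = 0.0465), Hoxc10 at −0.54 ± 0.47 (adjusted p = 0.58), Hoxa10 at −0.48 ± 0.52 (adjusted p = 0.673), Hoxc8 at −0.45 ± 0.67 (adjusted p = 0.773), Hoxa5 at −0.44 ± 0.28 (adjusted p = 0.45) and Hoxc9 at −0.06 ± 0.37 (adjusted p = 0.989). The count of lower HOX genes was 2, 1, 5 and 10 without the female iBAT, male iBAT, female sWAT and male sWAT library, while Hoxc10 and Hoxa5 kept the call without any single library. Hoxa9 lost it without the male iBAT library, and Hoxa10, Hoxc8 and Hoxc9 without either. Whether counting used strand is not given in the sources used here, so reads of HOX genes and of their antisense transcripts cannot be told apart.

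**Figure D5:**
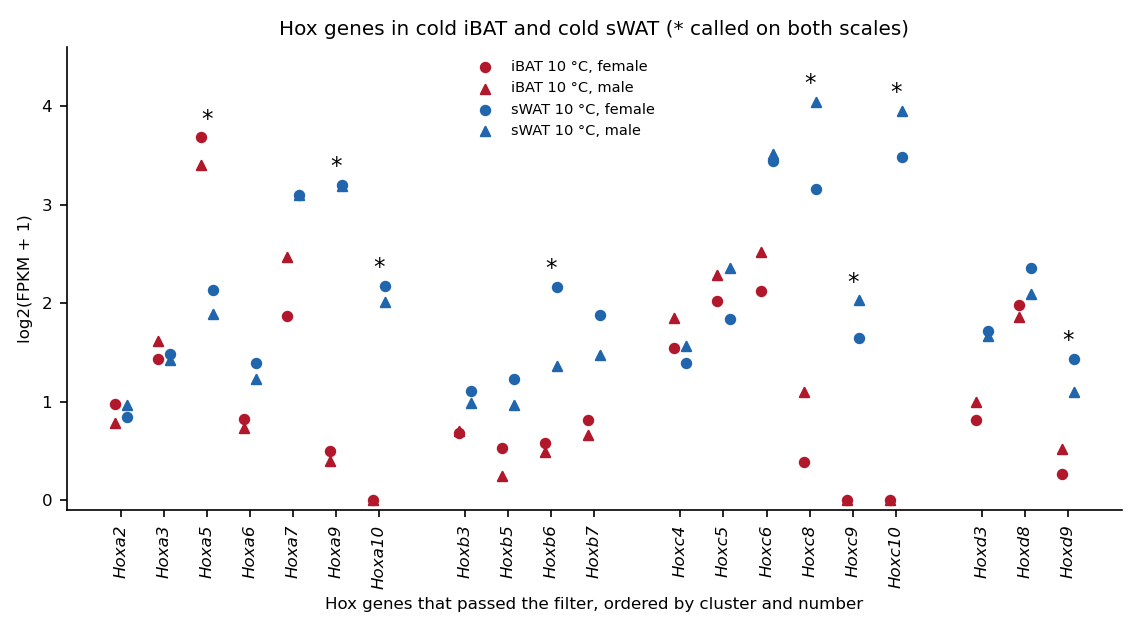
Log2 (FPKM + 1) of the HOX genes in each cold library, ordered by cluster and position, iBAT in red left of sWAT in blue and an asterisk for a call on both scales. Hoxa5 is the asterisked gene with higher iBAT points, while Hoxa10, Hoxc9 and Hoxc10 lie at 0 in iBAT, and Hoxa9 and Hoxc8 lie above 0 there but below sWAT.

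Of 61 other patterning factors 50 were in the table, and 27 passed the filter on low values. Of these, 11 were lower in cold iBAT, 8 on both scales, and none was higher, against 27.6%, 9.36% and 2.32% of all genes. The filter can be passed through the libraries of 1 depot alone, and factors low in all libraries were not tested. These counts therefore describe only the factors that passed. The median was −0.41 (−0.40 at 30 °C), and the count was 4, 5, 8 and 11 in the order of libraries used for the HOX genes. Shox2, a homeobox factor of the limb also listed as a beige marker, had 0.371 and 0.2 FPKM in cold iBAT, against 5.19 and 5.05 FPKM in cold sWAT (−1.79 ± 0.18, adjusted p = 0.00113). Osr1, a zinc finger factor of limb mesenchyme, had 0.164 and 0.265 FPKM in cold iBAT, against 5.23 and 4.76 FPKM in cold sWAT (−1.84 ± 0.19, adjusted p = 0.00133). Prrx1, a homeobox factor of limb and fibroblasts, had 1.24 and 1.13 FPKM in cold iBAT, against 9.24 and 6.62 FPKM in cold sWAT (−1.55 ± 0.21, adjusted p = 0.00243). All 3 were separate between the depots, kept the call without any single library and were lower in warm iBAT too, as was Osr2 (−1.44 ± 0.21). Emx2, a homeobox factor, was at 0 and 0.0197 FPKM in cold iBAT, against 3.6 and 2.79 FPKM in cold sWAT (−1.58 ± 0.31, adjusted p = 0.00789), and lost the call without either iBAT library. Tbx15, a T-box factor placed among classical brown markers, was lower, with 0.306 and 0.749 FPKM in cold iBAT, against 2.7 and 3.92 FPKM in cold sWAT (−1.03 ± 0.24, adjusted p = 0.00891), on both scales but not without the female iBAT library.

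The calls of cytosolic ribosome genes depended on the scale. Of 20, 16 were lower in cold iBAT but 3 on both scales, with a median of −0.96 at each temperature, and 1, 0, 5 and 19 were lower without the female iBAT, male iBAT, female sWAT and male sWAT library. Rps4x, of the small subunit, had 17.2 and 13.2 FPKM in cold iBAT, against 78.7 and 49.6 FPKM in cold sWAT (−1.52 ± 0.32, adjusted p = 0.00904), and lost the call without the male iBAT library. Of 16 cell division genes 5 were lower, 3 on both scales, against 27.6% and 9.36% of all genes, with a median of −0.22 (−1.65 at 30 °C, where all 16 were lower). The count was 0 without either iBAT library and with quantile normalization, 4 without the female and 6 without the male sWAT library. Mcm3, of the replicative helicase, had 0.965 and 0.961 FPKM in cold iBAT, against 6.23 and 2.83 FPKM in cold sWAT (−0.96 ± 0.30, adjusted p = 0.02), and lost the call without either iBAT library. Of 16 clock genes 1, Arntl (−0.42 ± 0.25, adjusted p = 0.0415), was lower, on the deposited scale but not with median-ratio scaling, and it lost the call without any 1 of 7 libraries.

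A test of whether the depot gap differed between 10 °C and 30 °C called 10 genes. In 6 of them iBAT was above sWAT with a smaller gap in the cold, and 5 of these, all but Cpt1b, were called higher at both temperatures. Cox7a1 had a warm gap of 8.16 ± 0.32, with 1423 and 1329.5 FPKM in warm iBAT, against 5.8 and 6.54 FPKM in warm sWAT, and the gap was smaller in the cold (−6.34 ± 0.45, adjusted p = 0.0191). Cidea had a warm gap of 7.03 ± 0.24, with 1263 and 1157 FPKM in warm iBAT, against 10.9 and 15 FPKM in warm sWAT (−5.29 ± 0.34, adjusted p = 0.0191), and Cpt1b, not called in the cold, a warm gap of 6.74 ± 0.36 (−5.07 ± 0.51, adjusted p = 0.0445). Their iBAT levels differed less between the temperatures than their sWAT levels, which were many times higher in the cold. Ntrk3 and Macrod1, a mitochondrial hydrolase of ADP-ribose, behaved otherwise. Ntrk3 had 64.5 and 72.2 FPKM in warm iBAT, against 2.72 and 2.51 FPKM in warm sWAT (−2.17 ± 0.22, adjusted p = 0.0445), and Macrod1 had 55.9 and 56.3 FPKM in cold iBAT, against 24.5 and 27.6 FPKM in cold sWAT, and 141 and 137 FPKM in warm iBAT, against 12.9 and 13.1 FPKM in warm sWAT (−2.29 ± 0.17, adjusted p = 0.0191). For both, iBAT was lower and sWAT higher in the cold than in the warm. Itpk1, an inositol phosphate kinase, followed Macrod1 in direction (−1.96 ± 0.20, adjusted p = 0.0445).

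The remaining 4 had a positive value. Besides Acsl5, Sept9, a septin of the cytoskeleton, had 42.1 and 48.4 FPKM in cold iBAT, against 10.8 and 17.3 FPKM in cold sWAT (2.12 ± 0.24), and 9.96 and 12.3 FPKM in warm iBAT, against 35.1 and 29.5 FPKM in warm sWAT (−0.89 ± 0.24), so its levels had opposite order at the 2 temperatures (3.06 ± 0.33, adjusted p = 0.0482), although the warm difference was called on the deposited scale but not with median-ratio scaling. Tm6sf1, a membrane protein not called in the cold, had 8.87 and 9.4 FPKM in cold iBAT, against 7.66 and 7.42 FPKM in cold sWAT, and 1.61 and 1.84 FPKM in warm iBAT, against 9.42 and 8.04 FPKM in warm sWAT (2.03 ± 0.21, adjusted p = 0.0445). Trav6-6, a T cell receptor segment with close copies, was at 0 and 0 FPKM in cold iBAT, against 0.294 and 0.122 FPKM in cold sWAT, and at 0.137 and 0.148 FPKM in warm iBAT, against 7.38 and 6.82 FPKM in warm sWAT (2.51 ± 0.25, adjusted p = 0.0445). Only Cidea and Acsl5 were called with median-ratio scaling too. The number of such genes rested on single libraries: it was 0 without either iBAT library of either temperature or either warm sWAT library, 14 without the male cold sWAT library and 1628 without the female cold sWAT library, of which 1077 were positive and 551 negative and which held all 10. Of the 3645 genes called in the warm and not in the cold, 3 had a called change of the gap, and of the 569 called in the cold and not in the warm, 0 had. In simulated data this test called 9% of genes changed 2-fold, so the lack of a call does not show that a gap was unchanged. Opposite calls at the 2 temperatures were made for 14 genes, and none of the 14 was called in opposite directions with median-ratio scaling. That scaling made 14 opposite calls of its own, for other genes.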

How the data were processed

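Total RNA of mouse fat depots was sequenced, and the authors deposited 1 table of FPKM values per gene and library, an FPKM being already divided by transcript length and by mapped fragments. Per the submitters' processing notes CASAVA 1.8 was used. Which aligner, counting tool, strand setting and genome build lie behind the values is not given in the sources used here. Of the table's gene identifiers, 14723 matched a symbol and 148 did not. Chromosomes of HOX genes came from GENCODE annotation.

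Columns were assigned to samples by the sample numbers in the labels, and 0 columns were left unassigned. Genes that reached 1 FPKM in 2 or more of the 8 mouse libraries were kept, values were taken as log2(FPKM + 1) with a pseudocount of 1, and limma 3.58.1 in R 4.3.3 fitted group means over the 8 libraries, with empirical Bayes and a mean trend, two-sided, and Benjamini-Hochberg adjustment over all genes kept. A fold change on this scale understates that of low genes. Calls are at an adjusted p under 0.05. Contrasts were iBAT minus sWAT at 10 °C, the same at 30 °C, and the difference between these contrasts.

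Members and gene lists were chosen with earlier results of these data known. Genes named were, in each direction, up to 12 called genes with the largest cold difference, no overlap between the depots, 5 FPKM or more as the mean of a group, and a proper symbol; up to 6 with the largest mean difference under the same conditions among those called alike at both temperatures; up to 6 called for the change with temperature; a set of fixed markers; and up to 6 members of each list, those called with the largest differences or, with none called, those with the highest mean. The red cell (3 genes tested), mesothelial (2) and mitochondrial DNA (2) lists gave 0 calls in the cold. In data simulated for the cold comparison over 10689 genes, the fit called 34% of genes changed 2-fold and 82% of those changed 4-fold, with 7 false calls of 123. The test of the change with temperature called 9% and 68% of the same genes. Only 100 genes were changed by each fold, none of them at low levels, with groups otherwise equal and independent noise. The real data had many more calls and a shifted median, so these rates need not hold for them. The only replicate label is sex, and the labels do not say that same-sex libraries share an animal or batch. Whole reads could not be recovered from the FPKM values, so no count test was run. Alternatives were another pseudocount, other filters, median-ratio and quantile scaling, scaling without the 10 highest genes, a fit of the 4 libraries of a contrast alone, a replicate block by sex, no trend, and each library left out.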

Additional observations from a re-analysis of the deposited data

Results flagged for a closer look

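The depot gap (iBAT minus sWAT) differed between 10 °C and 30 °C by the interaction test in limma for 10 genes, and these are given as values only, relative to the median of all genes. It was smaller in the cold for Cox7a1 (−6.34), Cidea (−5.29), Cpt1b (−5.07), Macrod1 (−2.29), Ntrk3 (−2.17) and Itpk1 (−1.96). The value was positive for Sept9 (3.06), Acsl5 (2.85), Trav6-6 (2.51) and Tm6sf1 (2.03). With 2 libraries in each group, no group was large enough for a search for single libraries that stand apart.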

How the results depend on the processing

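The 3194 cold depot calls were 1375 with quantile normalization, 906 in a fit of the 4 cold libraries alone, and between 361 and 4861 with 1 library left out. A fit with a replicate block by sex gave 4059. Same-sex deviations correlated at 0.369 between the cold depots and at between −0.0173 and 0.466 over all pairs of groups. The warm calls kept within 1.5-fold except with 1 library left out, where they were between 3564 and 6837. The 10 genes whose gap changed with temperature were 6 without a filter on low values, 2 with median-ratio scaling, 6 with the replicate block, 4 without a trend, 0 with median-ratio scaling and the replicate block together, and between 0 and 1628 with 1 library left out. Genes called the same way at both temperatures were 1090 with quantile normalization, 740 in fits of 4 libraries, and between 344 and 4213 with 1 library left out. The differences of Msmo1 (0.056) and Esam (0.037), here not taken relative to the median of all genes, changed sign with median-ratio scaling, with and without the replicate block, an alternative combined after seeing the data. The causes were not tested.

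Of 139 named genes with a cold call, 45 kept it without each library, and 44 of these under every other setting as well, while 92 lost it without the male cold iBAT library. Over all named genes 2682 of 3182 alternatives left the call as it was, 466 lost one and 30 gained one. With 2 libraries a group, 1 of each sex, sex and replicate cannot be told apart. Absolute depth is unknown. For relative depth, between 26.9% and 33.8% of the ratios of low values were whole, against 3.38% to 4.13% at shifted depths.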

Other observations

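Gene families defined by their symbols, chosen after the values were seen, add members to the groups above. Of 11 coenzyme Q genes tested, 4 were higher in cold iBAT and 0 lower, against 7 higher at 30 °C: beside Coq8a these were Coq6, a hydroxylase of the ring, with 98.5 and 92.0 FPKM in cold iBAT, against 31.7 and 49.9 FPKM in cold sWAT (adjusted p = 0.0319), Coq10a, a binding protein (1.66 ± 0.18), and Pdss2, of the side chain synthase (1.01 ± 0.16). Of 57 mitochondrial ribosome proteins 6 were higher (2.32% of all genes were) and 1 lower, and 45 were higher with median-ratio scaling. Among 35 mitochondrial carriers of the Slc25 family 3 were higher and 5 lower, against 2.32% and 27.6% of all genes. With median-ratio scaling 8 were higher and 3 lower, against 12.6% and 9.36% of all genes. Slc25a32, the folate carrier, had 13.3 and 14.4 FPKM in cold iBAT, against 6.01 and 4.26 FPKM in cold sWAT (1.75 ± 0.19, adjusted p = 0.00789), and Slc25a25, an ATP-magnesium carrier, had 1.39 and 1.69 FPKM in cold iBAT, against 6.25 and 13.2 FPKM in cold sWAT (−1.54 ± 0.30, adjusted p = 0.00792).

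Of 29 proteasome subunits 6 were lower in cold iBAT and 2 of these on both scales, against 27.6% and 9.36% of all genes, and 6 were higher with median-ratio scaling. Lower on both scales were the immunoproteasome subunits Psmb9, with 4.31 and 3.72 FPKM in cold iBAT, against 39.3 and 22.0 FPKM in cold sWAT (−2.14 ± 0.29, adjusted p = 0.00312), and Psmb10 (−1.35 ± 0.28, adjusted p = 0.00789). Set against the same shares, of 14 chemokine ligands 6 were lower and 2 of these on both scales, Ccl9 (−2.46 ± 0.17) and Ccl24 (−2.34 ± 0.30). With median-ratio scaling 1 chemokine ligand was higher. Of 8 ADAMTS proteases 4 were lower and 3 of these on both scales, among them Adamts2, the procollagen N-proteinase (−1.71 ± 0.14). The potassium channel subunit Kcnj11 was higher, with 2.39 and 1.88 FPKM in cold iBAT, against 0.631 and 0.799 FPKM in cold sWAT (1.33 ± 0.20, adjusted p = 0.0224).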
